A study of Homo sapiens with 6 samples.

Results

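The clustered protocadherins are 53 genes that lie side by side on the long arm of chromosome 5, chosen here by their symbols: PCDHA followed by a number or by C and a number (alpha cluster, 15 genes), PCDHB followed by a number (beta cluster, 16 genes), and PCDHGA, PCDHGB or PCDHGC followed by a number (gamma cluster, 22 genes). They are 53 of the 39282 genes in the deposited files. The study sequenced mRNA from 6 libraries of 2 established human ovarian cancer lines, PA-1, an ovarian teratocarcinoma, and TOV21G, an ovarian clear cell carcinoma. Each line had 1 library infected with a lentiviral scramble hairpin (the control) and 1 library with each of 2 different hairpins against MEX3A, an RNA-binding protein with ubiquitin ligase activity. All 6 libraries therefore carry a lentiviral hairpin, and no uninfected cells were analysed here. The design text speaks of each depleted sample as a clone, and whether the libraries of a line were separate cultures is not stated in the labels. The p-values thus measure only the spread between these libraries, and a hairpin cannot be told apart from the cells it was selected in. PA-1 and TOV21G were grown in different media, so line and medium cannot be told apart either.

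Protocadherins are cell surface proteins of the cadherin superfamily that bind the same isoform on a neighbouring cell. In neurons each cell switches on a small, largely random set of the alternate isoforms, whereas the C-type isoforms of the alpha and gamma clusters are used more uniformly, and the combination gives a cell a surface identity. Each alternate isoform has its own promoter and its own large first exon, which encodes the extracellular part. In the alpha and gamma clusters that exon is spliced to the same 3 constant exons at the end of the cluster, which encode a shared cytoplasmic tail. The beta genes have no constant exons. Promoter choice is known to depend on CTCF, cohesin, a conserved promoter element with a CGCT core, and DNA methylation.

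In GRCh38 the alpha genes span chr5:140786140-141012347, the beta genes chr5:141051374-141249365 and the gamma genes chr5:141330514-141512975, all on the plus strand. The 3 alpha constant exons are 59, 89 and 2718 bases long and the 3 gamma constant exons 59, 89 and 2033 bases, so most of the shared sequence sits in the last exon. RefSeq promoter windows (GRCh38.p14, 250 bases before the start to 50 bases after it) matched 47 of the 53 genes. The element CGCT, read on both strands, was in 46 of these 47 windows and in 69.3% of all 27305 promoter windows of that length. Longer forms around the core, chosen after these promoters were seen, differed between the clusters. GTGGCGCTG, which contains CGCT and CGCTG, was in 12 of 14 beta windows, in 0 of 13 alpha and 0 of 20 gamma windows, and in 0.557% of all windows. GTCGCTG was in 6 alpha, 0 beta and 6 gamma windows and in 3.35% of all windows, and GCCGCTG was in 12 gamma windows, in 0 alpha and 0 beta windows, and in 10.9% of all windows. CGCTG itself was in 41 of the 47 windows and in 47.7% of all windows. A match describes these letters and is not evidence of binding. The stretches below show GTCGCTG in alpha, GTGGCGCTG in beta and GCCGCTG in gamma genes named in the results, with the CGCT core in capitals. They are examples, since not every gene of a cluster carries its form. No GTCGCTG stretch was found for PCDHA3, PCDHA4, PCDHAC1 or PCDHAC2.
PCDHA2: tagccacatgatgtCGCTgtccaccata
PCDHA5: catccacatgatgtCGCTggacaccgga
PCDHB2: gagacgcggggtggCGCTgcagccttag
PCDHB5: aggacgcctggtggCGCTgcaggct
PCDHB13: aggacgcgtggtggCGCTgcaggataag
PCDHGB4: ctgactctgggcgcCGCTgttggccaaa
PCDHGB5: ctgactctgggcgcCGCTgttggccaaa
PCDHGA10: aggactctgagcgcCGCTgttcacctac
PCDHGC3: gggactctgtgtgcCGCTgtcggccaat
PCDHGC4: ctgagcccgggagcCGCTgtctgccaat

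All 10 stretches are on the plus strand of GRCh38.p14 and end before the annotated start. Those of PCDHA2 and PCDHA5 lie at chr5:140794783-140794810 and chr5:140821544-140821571. Those of PCDHB2, PCDHB5 and PCDHB13 lie at chr5:141094546-141094573, chr5:141135181-141135205 and chr5:141213867-141213894. Those of PCDHGB4, PCDHGB5 and PCDHGA10 lie at chr5:141387619-141387646, chr5:141397865-141397892 and chr5:141412933-141412960, and those of PCDHGC3 and PCDHGC4 at chr5:141475882-141475909 and chr5:141484954-141484981. PCDHGB4 and PCDHGB5 carry the same 28 letters. PCDHB5, which was high in PA-1, and PCDHB13, which was high in TOV21G, both carry GTGGCGCTG, as do 12 of the 14 beta windows. The letters are those of the reference genome, and whether they bear on the line differences was not tested.

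Because of the constant exons, the level of a single alpha or gamma gene depends on how the counting program divided shared reads. The constant exons make up a median of 54.5% of the long alpha transcripts (45.5% to 54.9%) and 47.3% of the long gamma transcripts (45.7% to 47.6%). Of all 75-base stretches in a gene's transcripts, a median of 46.5% in the alpha genes and 43.4% in the gamma genes also occur in another protocadherin gene, against 8.82% in the beta genes. PCDHGB4 shares 69.3%, the most of the gamma genes, and among the beta genes PCDHB8 shares 34.6% and PCDHB10 29.1%. The files show the division directly: 40 of 66 alpha values above 0 (60.6%) and 75 of 125 gamma values (60%) were not whole numbers within 0.005, against 0 of 90 beta values and 11.4% over all genes. PCDHACT, a separate entry for the alpha constant region, was listed at 0 in every library. Cluster totals in counts or CPM do not depend on the division within a cluster and are given before single genes.

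Library totals ranged from 14654628 to 19495162 expected counts, and 3 counts, the limit used for a gene with no reads, corresponded to 0.153 to 0.202 CPM (counts scaled to the effective library size by TMM). MEX3A was at 137 CPM in the PA-1 control and 41.2 and 54.9 CPM with hairpins 1 and 2, and at 78.3 CPM in the TOV21G control and 40.1 and 33.1 CPM with the hairpins. That is 30.0% and 40.0% of the control in PA-1 and 51.2% and 42.3% in TOV21G. All 10 teratocarcinoma markers were higher in PA-1, among them SALL4 (200 to 235 CPM against at most 0.330 CPM). Of 8 clear cell markers 5 were higher in TOV21G, among them PAX8 (243 to 273 CPM against at most 0.189 CPM), and 1, ARID3A, was higher in PA-1. Epithelial markers were mixed, though the labels name ovarian surface epithelium: KRT8 was at 60.02 to 216 CPM in all libraries and passed as higher in PA-1, EPCAM and KRT7 were higher in TOV21G, EPCAM was at 0.102 CPM or less in PA-1, and KRT7 was at 0 there. Of 8 neural markers tested, 3 were higher in PA-1 (MAP2, 76.8 to 136 against 4.77 to 6.30 CPM) and 4 in TOV21G (TUBB3, 142 to 198 against 17.4 to 40.7 CPM), while STMN2 and NEUROD1 were at 0 in all 6 libraries. The vessel genes PECAM1 and VWF were higher in PA-1, and the blood genes PTPRC, CD3E and HBB did not exceed 0.134 CPM. Among all genes tested 23.4% were called higher in PA-1 and 23.8% in TOV21G, and no marker list was tested as a list. Whether cells of another type took part in the results was not tested. In bulk RNA, fewer cells that express a gene and less of its RNA per cell cannot be told apart.

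The 3 clusters together held about the same share of the RNA in both lines, but it was divided differently. Summed over all 53 genes, PA-1 had 202 ± 18.2 CPM and TOV21G 224 ± 49.8 CPM (mean ± SD, n = 3 libraries per line), and the libraries overlapped. The beta cluster was lower in PA-1: 52.3 CPM in the control and 53.2 and 66.5 CPM with the hairpins (830, 876 and 1307 counts), against 88.3, 161 and 94.2 CPM in TOV21G (1359, 2445 and 1402 counts). Every TOV21G library was above every PA-1 library, and the mean was 2.0-fold higher in TOV21G, where hairpin 1 was the highest library. In summed TPM (a level per transcript length) the mean was 1.68-fold higher. The highest PA-1 library was then at 40.8 TPM and the lowest TOV21G library at 43.5 TPM.

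The gamma cluster went the other way, with 132, 117 and 127 CPM in PA-1 (2104, 1934 and 2497 counts) and 91.9, 96.8 and 84.5 CPM in TOV21G (1415, 1468 and 1257 counts). The groups did not overlap and the mean was 1.38-fold higher in PA-1, or 1.54-fold in summed TPM. Unlike summed counts, summed TPM also depends on the transcript lengths assigned in each library, and so on the division of shared reads. The alpha cluster was the lowest, with 15.9, 14.5 and 27.9 CPM in PA-1 (253, 239 and 549 counts) and 13.5, 23.4 and 18.2 CPM in TOV21G (207, 355 and 271 counts), and its libraries overlapped. Exact Poisson intervals (95%) reached at most 14.6% from the alpha totals, 7.04% from the beta totals and 5.69% from the gamma totals. These intervals cover counting error only. With 3 libraries against 3, an exact permutation test cannot go below p = 0.10, so the totals were not tested.

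**Figure D1:**
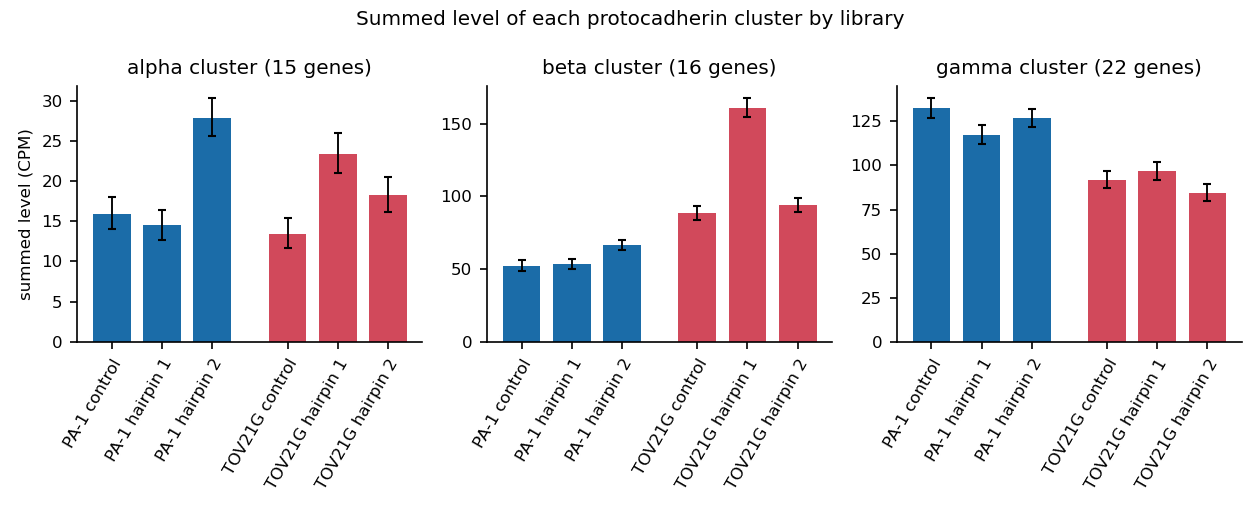
Summed level of the alpha, beta and gamma clusters in CPM (vertical axis, starting at 0) in each library, with PA-1 in blue and TOV21G in red; error bars are exact 95% Poisson counting intervals. The beta bars of TOV21G (88.3 to 161 CPM) stand above those of PA-1 (52.3 to 66.5 CPM), the gamma bars below them, and the alpha bars overlap.

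Within the clusters, the lines differed in part of the genes they used. By TPM the leading alpha gene was PCDHAC2 in PA-1 and PCDHA4 in TOV21G. PCDHGC3 led the gamma cluster in every library, and PCDHB2 had the highest mean beta TPM in both lines. The low-value filter kept 47 of the 53 genes (10 alpha, 15 beta, 22 gamma); since reads in 1 library could be enough, a gene may have passed through 1 line alone. PCDHA6, PCDHA7, PCDHA8, PCDHA11, PCDHA13 and PCDHB1 were not tested: PCDHA13 had 0 counts in every library, PCDHB1 had 1 count in all, and none of the others exceeded 10 counts in a library. In edgeR's quasi-likelihood test of 3 PA-1 against 3 TOV21G libraries, 15 of the 47 genes were higher in PA-1 (31.9%) and 13 were higher in TOV21G (27.7%) at an adjusted p under 0.05. Over all 16855 genes tested the shares were 23.4% and 23.8%, so the family as a whole differed between the lines about as often as other genes do. In CPM, the 3 PA-1 libraries lay above the 3 TOV21G libraries for 15 of the 47 genes (30.8% of all genes) and below them for 14 (29.4% of all genes).

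The direction of the calls differed between the clusters in count. In the gamma cluster 11 of 22 were higher in PA-1 and 1 in TOV21G, and the median log2 fold change of PA-1 over TOV21G was 1.70. In the beta cluster 2 of 15 were higher in PA-1 and 8 in TOV21G, with a median of -1.19. In the alpha cluster both C-type genes were higher in PA-1, and of the 8 alternate genes tested 4 were higher in TOV21G and 0 in PA-1, with a median of -2.33 over these 8. The median over all genes tested was -0.03. These counts and medians describe the lists and were not tested as lists.

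**Figure D2:**
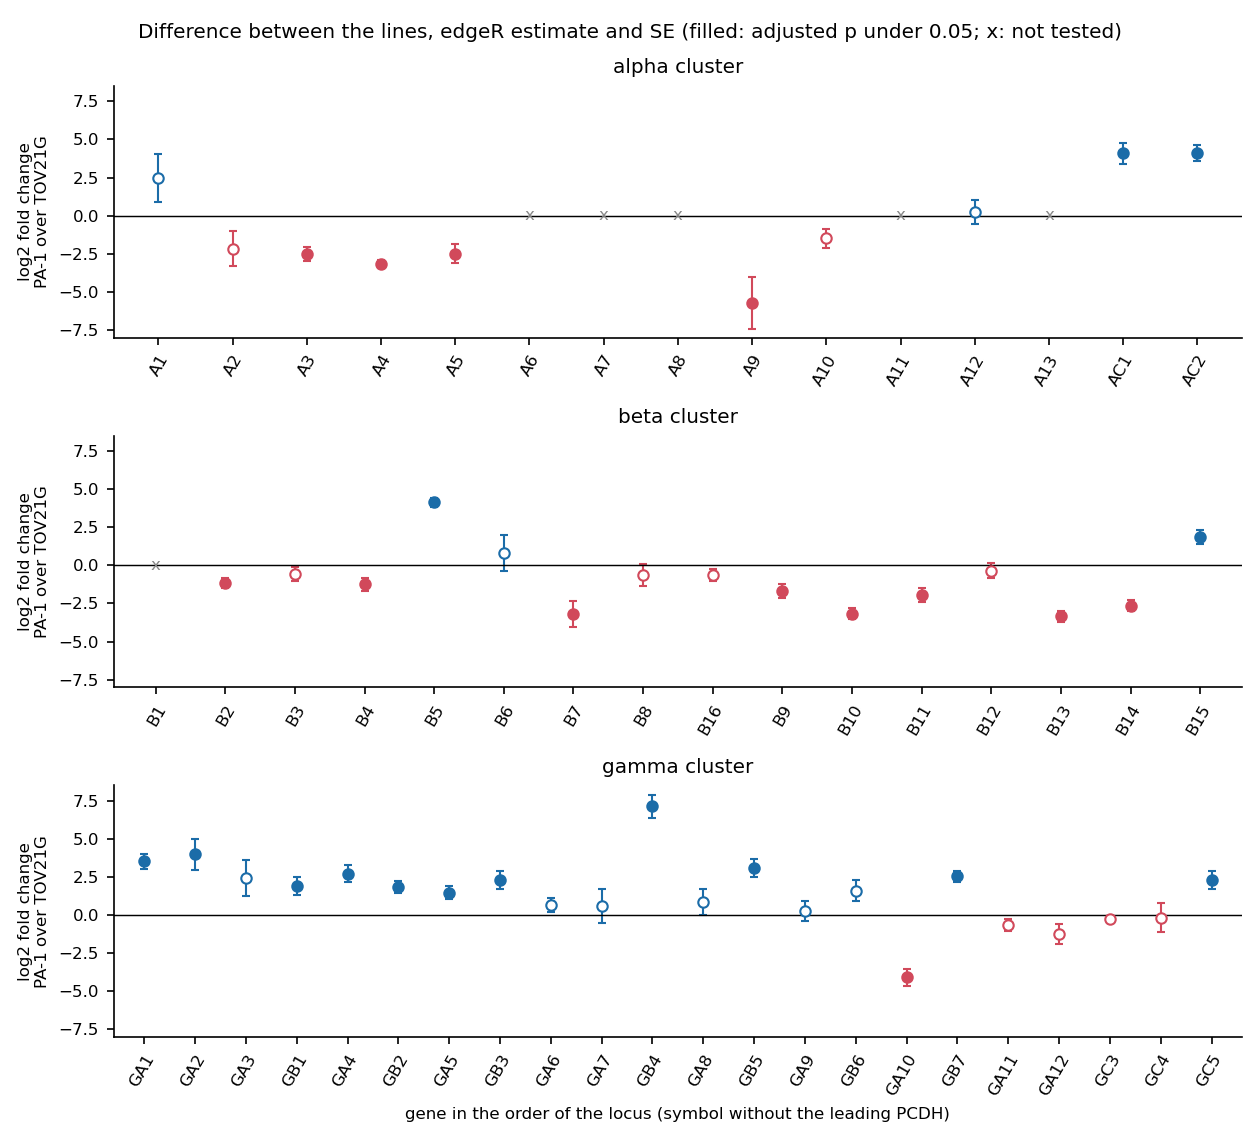
Log2 fold change of PA-1 over TOV21G (vertical axis) with its SE for every gene in the order of the locus; filled points had an edgeR adjusted p under 0.05, open points did not, and a grey x marks the 6 genes that were not tested. Most filled gamma points lie above 0, with PCDHGA10 as the exception, and most filled beta points lie below 0, with PCDHB5 and PCDHB15 above it.

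In the alpha cluster, PA-1 RNA came mostly from the C-type genes at the end of the cluster and TOV21G RNA mostly from PCDHA4. PCDHAC2 was at 9.63 CPM in the PA-1 control and 9.47 and 22.2 CPM with hairpins 1 and 2, against 0.585, 0.462 and 1.34 CPM in TOV21G. The lowest PA-1 library stood well above the highest TOV21G library, and the log2 fold change was 4.10 (SE 0.55, edgeR adjusted p = 0.000822). PCDHAC1 was at 2.08, 1.15 and 2.70 CPM in PA-1 and 0.0650, 0.198 and 0.0672 CPM in TOV21G, where it had 5 counts in all, a log2 fold change of 4.08 (SE 0.66, adjusted p = 0.00197). PCDHA4 showed the reverse, with 1.196, 0.971 and 1.17 CPM in PA-1 and 9.03, 10.8 and 10.7 CPM in TOV21G. Its libraries were tight within each line, and the log2 fold change was -3.18 (SE 0.27, adjusted p = 0.000104). PCDHA3, the next gene upstream, was at 0.315, 0.303 and 0.254 CPM in PA-1 and 1.56, 2.18 and 1.41 CPM in TOV21G (log2 fold change -2.53, SE 0.47, adjusted p = 0.00366).

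By TPM, PCDHAC2 made up 60.9% of the alpha level in the PA-1 control and 65.6% and 77.5% with the hairpins. PCDHA4 made up 59.4%, 40.0% and 50.6% in the corresponding TOV21G libraries. Summed over the 13 alternate genes, PA-1 had 3.74 ± 0.610 CPM and TOV21G 17.5 ± 5.01 CPM, whereas the 2 C-type genes had 15.7 ± 7.93 CPM and 0.907 ± 0.437 CPM (SD, n = 3). The similar alpha totals of the lines thus came from different genes. PCDHA2 was uneven within TOV21G, at 0.260, 2.11 and 0.672 CPM, and did not pass (adjusted p = 0.166). PCDHA9 had 0 counts in PA-1 and 1, 12 and 5 counts in TOV21G, which makes it at least 6.87-fold higher there against a limit of 3 counts over the 3 PA-1 libraries. Its call (adjusted p = 0.0378) was lost without any single PA-1 library and in several other settings. The average transcript length that the counting program gave PCDHAC2 was 2655 bases in the TOV21G control and with hairpin 1, and 5725 bases with both PA-1 hairpins, so the transcript forms it was assigned differed as well.

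In the beta cluster, PCDHB2 and PCDHB5 led in PA-1, and PCDHB2 and PCDHB13 in TOV21G. The beta genes are the clearest to read, since every value was a whole number. PCDHB5 was at 14.3, 16.1 and 18.1 CPM in PA-1 and 0.650, 1.06 and 1.01 CPM in TOV21G. The lines were far apart, with a log2 fold change of 4.15 (SE 0.30, edgeR adjusted p = 5.05e-05), the smallest adjusted p of the 47 genes. PCDHB15, the last gene of the cluster, was the other beta gene higher in PA-1 (log2 fold change 1.83, SE 0.46, adjusted p = 0.0137), with 33 to 54 counts in the PA-1 libraries and 7 to 17 in the TOV21G libraries.

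Of the 8 beta genes higher in TOV21G, PCDHB2 and PCDHB4 lie before PCDHB5 in the locus and the other 6 after it. PCDHB13 was at 1.26, 2.37 and 3.20 CPM in PA-1 and 19.03, 25.9 and 25.5 CPM in TOV21G (log2 fold change -3.35, SE 0.36, adjusted p = 0.000277). PCDHB10 was at 0.630, 0.607 and 0.712 CPM in PA-1 and 3.90, 6.99 and 6.92 CPM in TOV21G (log2 fold change -3.17, SE 0.38, adjusted p = 0.000467). PCDHB14 was at 1.76, 1.21 and 2.49 CPM in PA-1 and 9.48, 14.7 and 10.3 CPM in TOV21G (log2 fold change -2.65, SE 0.35, adjusted p = 0.000816). For each of these 3 genes the lines did not overlap. PCDHB12, which lies between PCDHB10 and PCDHB13, did not pass (log2 fold change -0.35, SE 0.49, adjusted p = 0.583).

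PCDHB2 had the highest mean beta TPM in both lines, 11.6 ± 1.01 TPM in PA-1 and 24.6 ± 13.97 TPM in TOV21G (SD, n = 3). It was at 18.95, 18.8 and 22.5 CPM in PA-1 and 37.2, 71.1 and 29.3 CPM in TOV21G, and its log2 fold change of -1.19 (SE 0.33) had an adjusted p = 0.0202. That call was lost in a fit of 4 group means (adjusted p = 0.0733), with limma on log2(TPM + 1) (0.0736), without the PA-1 control (0.0688) and without PA-1 hairpin 1 (0.0721). PCDHB16 was at 4.28, 5.76 and 7.22 CPM in PA-1 and 5.39, 13.6 and 7.52 CPM in TOV21G. The lines overlapped, and it did not pass (log2 fold change -0.62, SE 0.39, adjusted p = 0.227). The remaining called beta genes, PCDHB4, PCDHB7, PCDHB9 and PCDHB11, had log2 fold changes between -3.20 and -1.25. PCDHB4, PCDHB7 and PCDHB9 lost their calls in several settings.

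In the gamma cluster, PCDHGC3 was the most abundant gene in every library and did not separate the lines. It was at 45.8, 41.7 and 42.8 CPM in PA-1 and 57.3, 51.3 and 45.1 CPM in TOV21G, or 23.1 ± 2.25 and 25.1 ± 2.57 TPM. The PA-1 and TOV21G values overlapped, with a log2 fold change of -0.24 (SE 0.16, edgeR adjusted p = 0.266). It made up 30.4% to 36.4% of the gamma TPM in PA-1 and 51.7% to 61.2% in TOV21G.

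The B-type gamma genes, a subfamily whose exons alternate with A-type exons along the cluster, had the largest ratio between the lines of the 3 gamma subfamilies. Summed over the 7 genes they were at 55.7, 49.9 and 63.4 CPM in PA-1 and 6.63, 12.8 and 8.13 CPM in TOV21G, a 6.13-fold higher mean in PA-1, and 6 of the 7 passed. PCDHGB7 was at 25.4, 18.0 and 25.6 CPM in PA-1 and 2.47, 6.0 and 3.36 CPM in TOV21G (log2 fold change 2.54, SE 0.36, adjusted p = 0.00104). PCDHGB4 was at 8.31, 10.6 and 11.8 CPM in PA-1 and had 0, 3 and 0 counts in TOV21G. The pooled ratio was 156, with a 95% counting interval of 53.2 to 761, and the adjusted p was 0.000242. PCDHGB5, whose promoter stretch has the same letters, was at 6.37 to 8.24 CPM in PA-1 and 0.264 to 1.75 CPM in TOV21G (log2 fold change 3.06, SE 0.60, adjusted p = 0.00463).

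The A-type gamma genes split. Their sums were 23.4, 19.2 and 16.2 CPM in PA-1 and 23.2, 30.9 and 28.3 CPM in TOV21G, with means of 19.6 and 27.4 CPM. The libraries overlapped, and the sums were not tested. In TOV21G most of that came from PCDHGA10, at 16.8, 18.5 and 21.5 CPM against 1.83, 1.27 and 0.254 CPM in PA-1 (log2 fold change -4.10, SE 0.57, adjusted p = 0.000968). It was the only gamma gene that passed as higher in TOV21G, and by TPM the second of the cluster in all 3 TOV21G libraries (17.3% to 22.4%). Of the other A-type genes, 4 passed as higher in PA-1. PCDHGA1, the first gene of the cluster, was at 4.22, 2.91 and 3.76 CPM in PA-1 and 0.455, 0.132 and 0.336 CPM in TOV21G (log2 fold change 3.53, SE 0.50, adjusted p = 0.00103). PCDHGA2, PCDHGA4 and PCDHGA5 had log2 fold changes of 3.97, 2.72 and 1.46.

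PCDHGC5, a C-type gene, was at 2.77, 5.76 and 4.27 CPM in PA-1 and 0.325, 0.791 and 1.48 CPM in TOV21G (log2 fold change 2.30, SE 0.56, adjusted p = 0.0124, and 0.0522 without PA-1 hairpin 1). Every PA-1 library had more than 3 counts for all 22 gamma genes, whereas 17, 20 and 15 of the 22 exceeded that in the TOV21G control, hairpin 1 and hairpin 2 libraries. In the alpha cluster 8, 9 and 8 of 15 exceeded 3 counts in PA-1 and 6, 10 and 9 in TOV21G. The 3 leading alpha genes held 80.5% to 92.8% of the alpha TPM in the PA-1 libraries and 67.5% to 81.6% in the TOV21G libraries, so most of the level came from a few genes. Bulk RNA does not say whether single cells held many isoforms or different cells held different ones.

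**Figure D3:**
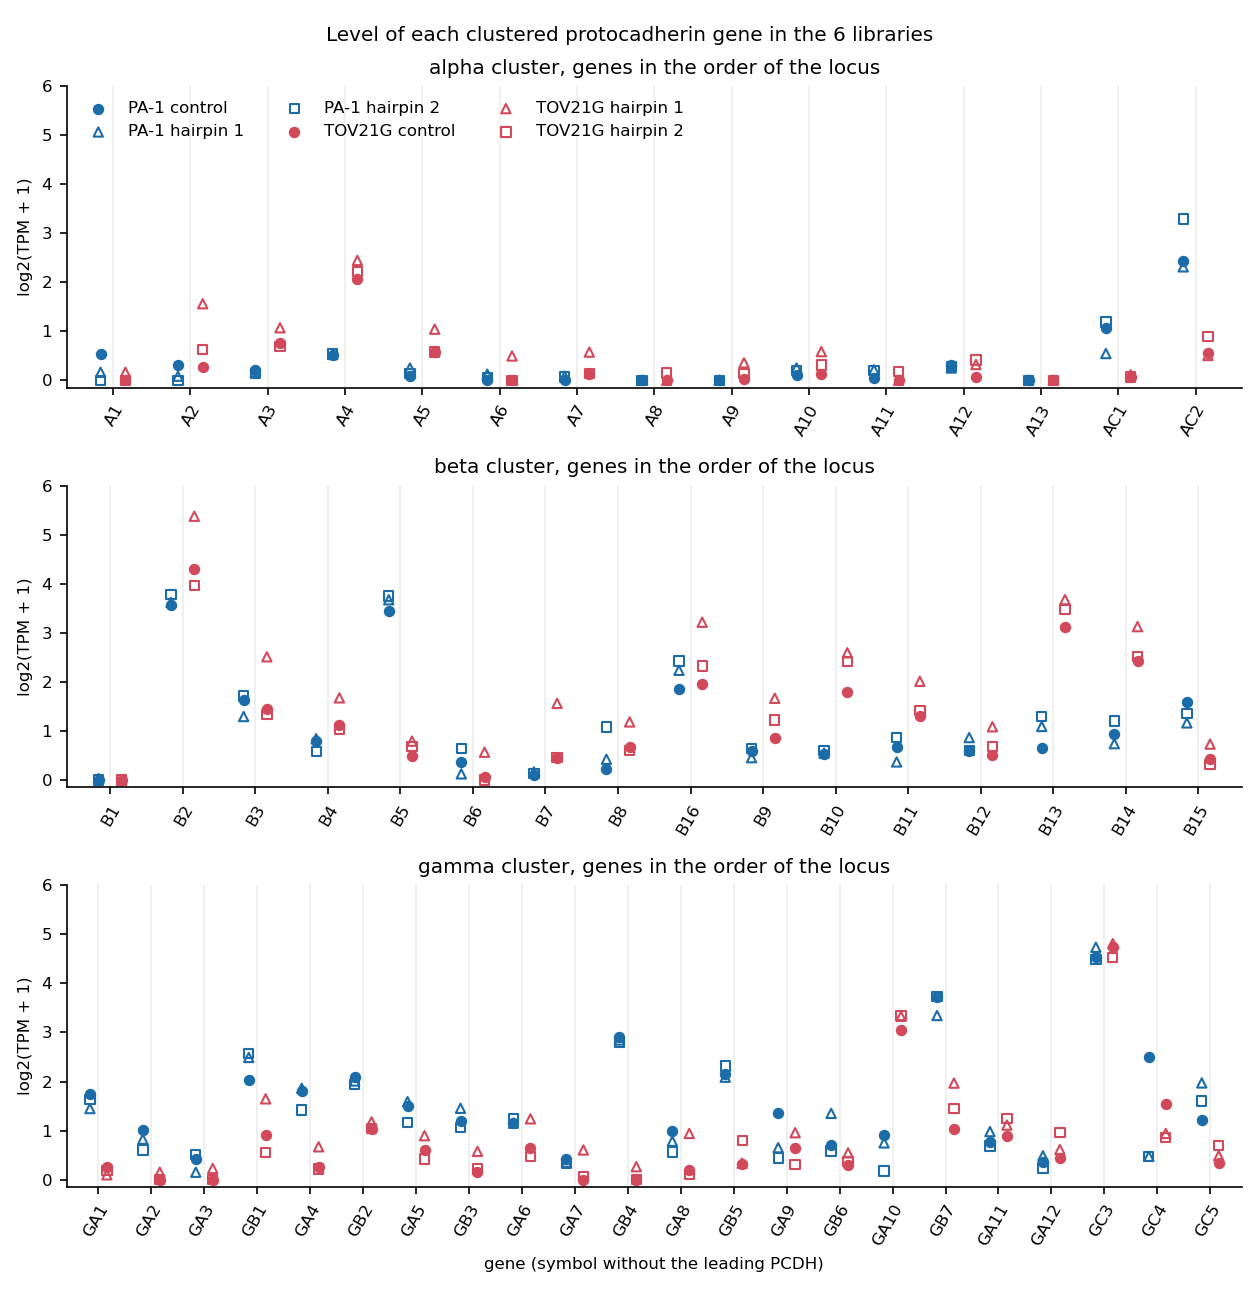
Level of each of the 53 genes on the log2(TPM + 1) scale (vertical axis) in the 6 libraries, in the order of the locus; filled circles are controls, triangles hairpin 1 and squares hairpin 2, with PA-1 in blue and TOV21G in red. PCDHGC3 (21.5 to 27.1 TPM) is level across both lines, while PCDHAC2, PCDHB5, PCDHGB4 and PCDHGB7 stand higher in PA-1 and PCDHA4, PCDHB13 and PCDHGA10 higher in TOV21G.

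Leaving out 1 library or changing the model moved the number of called genes between 19 and 28. The fit of 4 group means called 20, of which 13 were higher in PA-1 and 7 in TOV21G. All 20 were among the 28, and the calls it lost were PCDHA9, PCDHB2, PCDHB4, PCDHB7, PCDHB9, PCDHB11, PCDHGA5 and PCDHGB1.

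Of 22 regulators of promoter choice outside the clusters, 12 were higher in PA-1, 1 was higher in TOV21G and 9 did not pass. The median log2 fold change of the list was 0.71. Over all genes 23.4% were higher in PA-1 and 23.8% in TOV21G, and the list was not tested as a list. TET1, which oxidizes methylcytosine, was at 264 to 305 CPM in PA-1 and 43.8 to 57.2 CPM in TOV21G (log2 fold change 2.53, SE 0.18, edgeR adjusted p = 4.77e-05). SMCHD1, a repressor known to act on these clusters, was at 283 to 320 CPM and 58.1 to 79.2 CPM (log2 fold change 2.15, SE 0.18, adjusted p = 9.70e-05). DNMT3B, a de novo DNA methyltransferase, had a log2 fold change of 1.66, and TET2 was the regulator higher in TOV21G (-1.63). CTCF passed with a smaller difference (log2 fold change 0.75, SE 0.23, adjusted p = 0.0275). Their part in the protocadherin differences was not tested.

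Of 22 signalling and cleavage partners, 5 were higher in PA-1 and 4 in TOV21G, with a median of -0.02. The sheddase ADAM10 was at 295 to 399 CPM in PA-1 and 330 to 738 CPM in TOV21G and did not pass (adjusted p = 0.102). The kinase FYN was higher in PA-1 (log2 fold change 2.96), as was MARCKS (2.19). Of 10 non-clustered protocadherins tested, 6 were higher in PA-1, led by PCDH18 (117 to 157 CPM against 0.806 to 1.49 CPM), and 2 in TOV21G, PCDH20 and PCDH9. Of the FAT and Dachsous cadherins 2 of 5 were higher in PA-1, FAT2 and DCHS1, and of the classical cadherins 4 of 7, led by CDH6 and CDH2. The shares over all genes were 23.4% higher in PA-1 and 23.8% higher in TOV21G. None of these lists was tested as a list.

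Genes that flank the clusters on chromosome 5 went both ways, 3 of 10 higher in PA-1 and 5 in TOV21G. TAF7, which lies between the beta and gamma clusters, was at 127 to 138 CPM in PA-1 and 83.9 to 107 CPM in TOV21G (log2 fold change 0.46, SE 0.16, adjusted p = 0.0475). ARAP3 was higher in PA-1 (log2 fold change 2.67) and WDR55 in TOV21G (-1.14). Of the beta and gamma pseudogenes 2 of 3 tested, PCDHB18P and PCDHB19P, were higher in TOV21G, none above 1.25 CPM. Here too the shares over all genes were 23.4% for PA-1 and 23.8% for TOV21G, and neither list was tested as a list.

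For the hairpins, no protocadherin passed the test in any contrast. edgeR called 0 of the 47 genes in PA-1, in TOV21G, in the mean of both lines and in the difference between the lines, and it called 0% of all genes in each of the 4. DESeq2 also called 0 of the 47 in each, while it called 36, 226, 133 and 19 of all genes. At an unadjusted p under 0.05 edgeR had 2 of the 47 in PA-1 (2.57% of all genes), 1 in TOV21G (9.56%), 3 in the mean (8.21%) and 1, PCDHA2, in the difference (3.81%). This fit had 2 residual degrees of freedom, with the spread taken from the 2 hairpins of each line and the single control assumed to vary as they did. A result that did not pass therefore does not show that a gene stayed level.

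PCDHGC4, a C-type gene that takes part in neuron survival in mice, was below the control of its line with both hairpins in both lines. In PA-1 its level was 4.91 CPM in the control and 0.789 and 0.407 CPM with hairpins 1 and 2 (77.7, 12.6 and 8 expected counts). In TOV21G it was at 4.48 CPM in the control and 0.989 and 1.48 CPM with the hairpins (68.9, 15 and 22 expected counts). All 4 hairpin libraries were thus below both controls. The log2 fold change was -3.04 (SE 0.60, unadjusted p = 0.00368, edgeR adjusted p = 1) in PA-1, -1.86 (SE 0.59, unadjusted p = 0.0242, adjusted p = 0.471) in TOV21G and -2.45 (SE 0.42, unadjusted p = 0.00192, adjusted p = 0.547) in the mean. Over the alternatives the adjusted p of the mean ran from 0.0470, without TOV21G hairpin 1, to 1, and DESeq2 gave 0.0742. As a gamma gene it shares the constant exons: 41.9% of its 75-base stretches occur in another protocadherin gene, and the average transcript length assigned to it was 2536, 4763 and 2616 bases in the PA-1 libraries and 4763, 2616 and 3698 bases in the TOV21G libraries. Its reads may thus have been divided differently between libraries, which was not tested.

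PCDHGC5 differed in the other direction, with all 4 hairpin libraries above the control of their line, but at a log2 fold change of 1.32 (SE 0.47, unadjusted p = 0.0377, edgeR adjusted p = 0.574) in the mean. A common direction was not particular to these genes. PCDHA5, PCDHB5, PCDHB7, PCDHB12, PCDHB13 and PCDHB16 were also above the control in all 4 libraries, and PCDHGC3 and PCDHGA1 below it. PCDHGC3, with far more reads, had a log2 fold change of -0.18 (SE 0.17, adjusted p = 0.813) in the mean. PCDHB13 had 1.15 (SE 0.38, unadjusted p = 0.0284, adjusted p = 1) in PA-1 and 0.79 (SE 0.25, unadjusted p = 0.0233, adjusted p = 0.558) in the mean. PCDHB16 and PCDHB10 had 0.97 (SE 0.50) and 0.83 (SE 0.44) in TOV21G, with adjusted p values of 0.599 and 0.601. PCDHGB7 had 0.92 (SE 0.51, adjusted p = 0.610) in TOV21G and PCDHGA10 -1.29 (SE 0.81, adjusted p = 1) in PA-1. Leaving out the hairpin 1 library of PA-1 gave -2.81 for PCDHGA10, and leaving out its hairpin 2 library gave -0.51. In PA-1 PCDHB15 had -0.55 (SE 0.65), and PCDHGA1 had -0.64 (SE 0.49) in the mean, neither of which passed.

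Each hairpin library was then set beside the control of its line with no test, by subtracting log2 CPM values after adding a prior count of 2. Both hairpins of a line share that control. In PA-1, 3 of the 47 genes were at least 2-fold higher with hairpin 1 (5.59% of all genes) and 6 at least 2-fold lower (2.19% of all genes). With hairpin 2 the counts were 3 higher (6.95% of all genes) and 6 lower (2.48% of all genes). Each count of 6 is 12.8% of the 47 genes. The lower ones included PCDHA1 and PCDHA2, which had under 15 counts in the PA-1 control. Without that control 46 of the 47 genes would have passed the low-value filter. PCDHA1, with 14.79 counts in the control and at most 4.58 in any other library, passed through it. It therefore had to be lower with both hairpins. Among the 39 genes with at least 10 counts in at least 3 libraries, 2 (5.13%) were lower with hairpin 1 and 4 (10.3%) with hairpin 2. Over all 15262 genes that pass this filter the shares were 1.5% and 1.72%.

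TOV21G with hairpin 1 was the library in which most of the family stood above its control. Of the 47 genes, 21 (44.7%) were at least 2-fold higher, against 8.71% of all genes, and 2 were at least 2-fold lower, against 7.87%. The higher genes were 5 of 10 alpha, 6 of 15 beta and 10 of 22 gamma genes. Some of the 47 genes passed the low-value filter through this library and so had to be high in it. Without it PCDHA2, PCDHA9 and PCDHGA7 would not have passed, and 18 of the other 44 genes were at least 2-fold higher (7.96% of all genes). The 21 also held PCDHA1, PCDHGB4, PCDHGA2 and PCDHGA3, which had 0 counts in the control and 3.41, 3, 3.56 and 5.34 expected counts with hairpin 1. With the filter of at least 10 counts in at least 3 libraries, 14 of 39 genes (35.9%) were at least 2-fold higher, against 7.14% of all genes, both filters having been chosen after seeing the data. All 15 beta genes were above the control, from 0.44 for PCDHB13 to 2.06 for PCDHB7, with a median difference of 0.83 on the log2 scale. Over all 16855 genes 8053 were above the control, and the median was 0. The beta total was 1.83-fold that of the control. PCDHB2, the most abundant beta gene, went from 37.2 to 71.1 CPM. The alpha total was 1.74-fold the control and the gamma total 1.05-fold. Such an alpha total was not particular to this library. With PA-1 hairpin 2 it was 1.75-fold its control, where PCDHAC2 was at 22.2 CPM against 9.63 CPM. PCDHGC3, the main gamma gene, was at 57.3 CPM in the control and 51.3 CPM with hairpin 1. TAF7, between the beta and gamma clusters, was at 101 CPM in the control and 83.9 CPM with hairpin 1.

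TOV21G with hairpin 2 did not show the same size of difference. Of the 47 genes, 7 (14.9%) were at least 2-fold higher, against 12.4% of all genes, and 2 at least 2-fold lower, against 10.7%. Without this library 44 of the 47 would have passed the low-value filter, so some genes had to be high in it. PCDHA12 and PCDHGA12 had their highest counts of all 6 libraries here (11.05 and 18). With the filter of at least 10 counts in at least 3 libraries, added after seeing the data, 3 of 39 genes (7.69%) were higher, against 10.5%. The higher genes were 4 of 10 alpha, 0 of 15 beta and 3 of 22 gamma genes. The median difference was 0.12 on the log2 scale, the beta total was 1.07-fold that of the control, and PCDHB2 was at 29.3 CPM. The alpha total was 1.35-fold and the gamma total 0.919-fold the control. Hairpins 1 and 2 left 51.2% and 42.3% of the MEX3A level of that control. In the TOV21G fit, which averages both hairpins, 43 of the 47 genes had a positive log2 fold change, against 8700 of all 16855 genes. The median was 0.71, against 0.02 over all genes. The 47 include PCDHA2, PCDHA9 and PCDHGA7, which passed the low-value filter only through the hairpin 1 library. Some others passed it through the hairpin 2 library, so part of the positive values follows from the filter. The median of 0.71 rests on 1 control library and mostly on hairpin 1. In PA-1 the median was -0.10 with 21 of 47 positive, against 8412 of all 16855 genes.

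**Figure D4:**
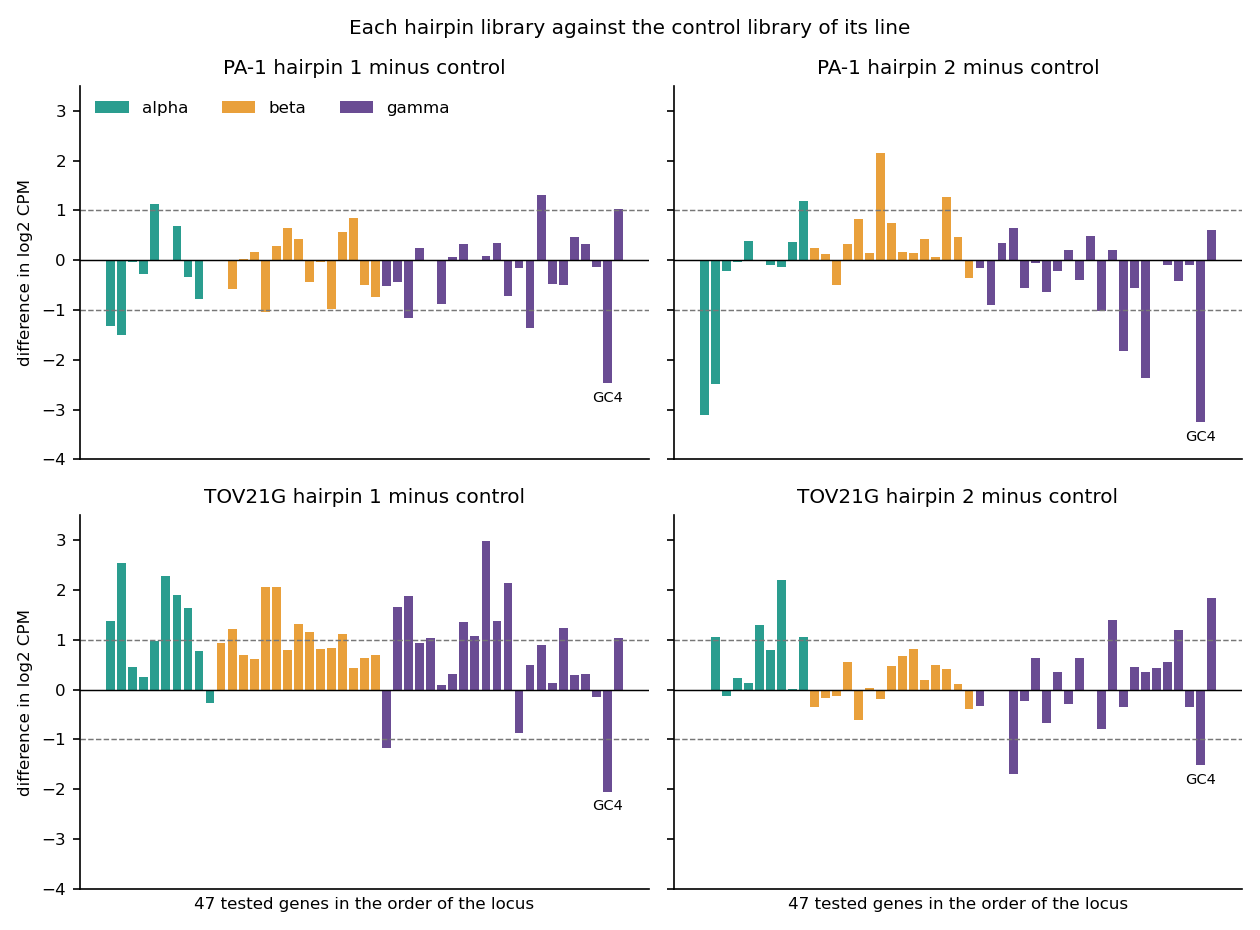
Difference in log2 CPM between each hairpin library and its control (vertical axis) for the 47 tested genes in the order of the locus, with alpha genes in green, beta in orange and gamma in purple; dashed lines mark 2-fold, and PCDHGC4 is labelled GC4. PCDHGC4 lies below the lower dashed line in all 4 panels, and 21 genes lie above the upper line with hairpin 1 in TOV21G against 7 with hairpin 2.

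None of the lists of regulators, signalling partners, other cadherins, flanking genes, pseudogenes or cell type markers had a gene called by edgeR in a hairpin contrast. The smallest unadjusted p values in TOV21G were those of 3 clear cell markers. ANXA4 was at 649.7 CPM in the control and 197 and 199 CPM with the hairpins (log2 fold change -1.71, SE 0.22, unadjusted p = 0.00046, edgeR adjusted p = 0.382). GPX3 was at 115 CPM in the control and 31.3 and 19.3 CPM with the hairpins (log2 fold change -2.18, SE 0.39), and TFPI2 at 41.2 CPM against 519 and 443 CPM (3.55, SE 0.72), both with an adjusted p of 0.382. In PA-1 the markers TFPI2 and SPP1 had log2 fold changes of 3.499 (SE 0.74) and 2.39 (SE 0.57), with adjusted p values of 1. Clear cell markers thus differed from the TOV21G control beside the protocadherins, in both directions, and their part in the hairpin values was not tested. Among the regulators, SMC1A and DNMT1 had log2 fold changes of -0.81 (SE 0.25) and -1.01 (SE 0.32) in TOV21G, with adjusted p values of 0.467 and 0.471.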

How the data were processed

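Gene-level expected counts and TPM were deposited by the authors; the deposited FPKM values were not used. Per the submitters' processing notes cutadapt 1.12, STAR 2.5.3a, RSEM 1.2.31 and edgeR 3.26.8 were used with hg38; the labels' protocol describes poly(A) selection and a kit that marks strand, and the strand setting of the counting is not given in the sources used here. Expected counts were rounded and analysed in R 4.3.3 with edgeR 4.0.16 (TMM, filterByExpr over the 4 groups, quasi-likelihood F test, Benjamini-Hochberg over all 16855 genes, threshold 0.05). SE is the absolute log2 fold change over the square root of F. Lines were compared as 3 against 3 libraries, hairpin contrasts in 4 group means. DESeq2 1.42.0 and limma 3.58.1 (log2(TPM + 1)) served as alternatives, and the scripts were tested on simulated data. Controls and equal hairpin numbers of the lines deviated together (correlations 0.221, 0.175 and 0.269). The main tests were unpaired, and only an alternative fit, the replicate block, used this pairing. Equal numbers mark the same hairpin in the labels, and why the libraries deviated together was not tested. Positions are from RefSeq, and exons and shared stretches from GENCODE.

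The genes and lists were chosen with earlier results of these data known. Named with values were the 3 genes of highest mean TPM per cluster and line, the 6 called genes per direction of smallest p, up to 3 per direction and hairpin contrast with a mean of at least 1 CPM, all C-type genes and up to 4 genes per list; other names were chosen after their values were seen.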

Additional observations from a re-analysis of the deposited data

How the results depend on the processing

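Between the lines, 28 genes were called with the replicate block (the same 28), with RLE size factors and with DESeq2, 27 without a filter or with a stricter one, 24 with limma on TPM and 20 with 4 group means. Leaving out 1 library gave 19 to 28; without the PA-1 control the 19 no longer held PCDHA5, PCDHA9, PCDHB2, PCDHB4, PCDHB7, PCDHB9, PCDHB15, PCDHGA5 and PCDHGB1. In the hairpin contrasts the replicate block called 0 of the 47 genes, and 13, 36, 22 and 0 of all genes. Leaving out 1 library gave 0 to 1 for the mean of both lines: without TOV21G hairpin 1, where that line keeps 1 hairpin library whose spread is assumed to match PA-1, PCDHGC4 was called, with 526 of all genes (1489 in TOV21G). With the stricter filter, 2 genes were at least 2-fold lower with PA-1 hairpin 1 (1.5% of all genes). With TOV21G hairpin 2, 3 were higher (10.5% of all genes), both added after seeing the data. With a prior count of 0.5, 4 genes were at least 2-fold lower with TOV21G hairpin 2. The line difference of PCDHGC4 was 0.034 with limma on TPM and ran from -1.95 to 0.70 when 1 library was left out, and the log2 ratio of the alpha totals (PA-1 over TOV21G) ran from -0.27 to 0.30, an alternative chosen after seeing the data. The log2 ratio of the gamma totals (PA-1 over TOV21G) was 0.62 in summed TPM. The cause of these shifts was not tested. Genes with few counts, chiefly alpha genes, are limited by depth, and single alpha and gamma values by the division of shared reads.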
